A study of Arabidopsis thaliana with 12 samples.

Results

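Plant cysteine oxidases (PCOs) and group VII ethylene response factors (ERFVIIs) form the oxygen-sensing pair of plant cells, and the 10 *Arabidopsis thaliana* genes that encode them are described here out of 32678 genes in the count table. They are the 5 oxidase genes *PCO1* (AT5G15120), *PCO2* (AT5G39890), *PCO3* (AT1G18490), *PCO4* (AT2G42670) and *PCO5* (AT3G58670), and the 5 transcription factor genes *HRE1* (AT1G72360), *HRE2* (AT2G47520), *RAP2.2* (AT3G14230), *RAP2.3* (AT3G16770) and *RAP2.12* (AT1G53910). They were chosen by gene identifier as the known members of both families, and all 10 passed the filter on low counts that left 20168 genes for testing. Root RNA was sequenced from Columbia wild type and from *clf*, a line carrying the *clf-29* insertion allele of *CURLY LEAF*, which encodes a histone methyltransferase of the Polycomb Repressive Complex PRC2. Seedlings of both genotypes spent 12 days on B5 medium and then 3 days either on medium with iron (+Fe) or on medium without iron that also held the iron chelator ferrozine (-Fe), which gave 4 groups of 3 libraries that the study's methods call biological replicates. The mutant is represented by a single line, and whole roots were taken, so that fewer cells of a type and less RNA per cell cannot be told apart.

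PCOs are non-haem iron enzymes. With oxygen as the other substrate, they oxidise a cysteine exposed at the N-terminus of target proteins, which marks the targets for arginylation and for degradation by the proteasome along the Cys branch of the N-degron pathway. The ERFVII proteins are the best known targets, and when oxygen is short they are stabilised and activate the hypoxia genes of fermentation and sugar use. *PCO1*, *PCO2*, *HRE1* and *HRE2* are themselves known as hypoxia-inducible genes, while *RAP2.2*, *RAP2.3* and *RAP2.12* are known for transcripts present in normal air.

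The feature that links both families is visible in the coding starts of the ERFVII genes, where a cysteine codon directly follows the start codon. The first 30 coding bases of each gene are shown because they encode the N-terminus that PCOs act on, from RefSeq (TAIR10.1), 5′ to 3′, with the Met and Cys codons in capitals.
HRE1 (chr1:27241904-27241933, plus strand): ATGTGCggaggagctgtaatttccgattac
HRE2 (chr2:19503461-19503490, minus strand): ATGTGTgggggagctatcatttctgatttc
RAP2.2 (chr3:4738971-4739000, minus strand): ATGTGTggaggagctataatctccgatttc
RAP2.3 (chr3:5705784-5705813, plus strand): ATGTGTggcggtgctattatttccgattat
RAP2.12 (chr1:20135242-20135271, plus strand): ATGTGTggaggagctataatatccgatttc
Of these 30 bases, 21 were the same in all 5 genes, and the first 5 codons encoded the same residues in all 5. None of the 5 PCO genes had a cysteine codon in that place. The annotation gave 3 mRNAs of *HRE1*, of which 2 started with these codons, while every annotated mRNA of the other ERFVII genes did.

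The oxidases share a stretch of another kind, a pair of histidine codons separated by a single codon. Histidines hold the catalytic iron in enzymes of this class, and the alignment of the 5 proteins held only 1 such histidine pair common to all. The 27 coding bases around it are shown because they mark the iron-holding site of the family, with both histidine codons in capitals.
PCO1 (chr5:4899412-4899438, plus strand): attcctcttCATaacCATccagggatg
PCO2 (chr5:15975110-15975136, plus strand): atccctcttCACaatCACccggagatg
PCO3 (chr1:6368004-6368030, plus strand): atcccattgCATgatCATccagagatg
PCO4 (chr2:17772593-17772619, minus strand): atacctcttCATaacCATccgggcatg
PCO5 (chr3:21704453-21704479, minus strand): ataccacttCATaatCATccaggcatg
The proteins encoded by *PCO4* and *PCO5* were the most alike of the oxidases, with 76.8% identity over 241 aligned residues, and those of *PCO1* and *PCO2* followed with 59.1% over 276. Every other pair of oxidases lay between 40.2% and 47%. Among the ERFVII proteins, RAP2.2 and RAP2.12 shared 67% of 351 aligned residues, and the other pairs between 41.2% and 48.4%.

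The genes lie apart on the genome of TAIR10.1. *PCO1* spans 4898641 to 4900734 and *PCO2* 15974270 to 15976270, both on the plus strand of chromosome 5. *RAP2.2* (4737120 to 4739298, minus strand), *RAP2.3* (5705541 to 5707084, plus strand) and *PCO5* (21703385 to 21706137, minus strand) are on chromosome 3. *HRE2* (19502776 to 19503702) and *PCO4* (17771697 to 17774647) are on the minus strand of chromosome 2, and *PCO3* (6366520 to 6368879), *RAP2.12* (20134844 to 20137013) and *HRE1* (27241696 to 27242968) are on the plus strand of chromosome 1. Only *PCO3* and *HRE1* overlap another annotated gene. *PCO3* shares 234 bases with AT1G18486 on the same strand, which had 0 reads in every library. *HRE1* shares 124 bases with AT1G72370 on the opposite strand, a gene with 14030 to 29340 reads per library, and since the sources used here do not say whether reads were counted by strand, the counts of *HRE1* are uncertain to that extent. A pair of short motifs was searched on both strands of the 300 bases before each annotated gene start, namely GCCGCC, the box bound by many ethylene response factors, and CACGTG, the G-box. Neither occurred before any of the 10 genes, against 2.26% and 7.09% of the same windows before all 27443 protein-coding genes with a full window.

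Total counts ranged from 18658428 to 28281420 per library. *CLF* transcripts were lower in *clf* at both iron levels, by -1.75 at +Fe (SE 0.17, adjusted p = 0.00341) and by -1.93 at -Fe (SE 0.17, adjusted p = 0.000871) on the log2 scale in edgeR's quasi-likelihood test. The iron labels were also borne out by the ferritin gene *FER1*, which fell from between 56.2 and 79.3 CPM (normalised counts scaled to library size) to between 2.51 and 3.08 in wild type, and from between 28.7 and 30.8 to between 0.685 and 4.72 in *clf*. Averaged over genotypes, the uptake genes *FIT*, *IRT1* and *FRO2* rose by 2.14, 3.98 and 4.56 on the log2 scale (adjusted p between 0.00314 and 0.0116, edgeR's quasi-likelihood test). In wild type alone the same test called none of them (adjusted p = 0.113, 0.0898 and 0.0635), and in *clf* alone it missed *FIT* and *IRT1* (adjusted p = 0.106 and 0.0710). DESeq2 called each of these. All 9 root markers were detected in every library. A library of each group stood apart by correlating less well with the others of the group (mean r), namely wild type +Fe 1 (0.934), wild type -Fe 1 (0.934), *clf* +Fe 2 (0.950) and *clf* -Fe 1 (0.953), against 0.959 to 0.970 for the other 8. All 12 libraries were kept, and calls of the genes described that change without these 4 are given beside them. Leaving them out narrows the spread by its own rule. For iron in wild type, the fit without them called 2798 genes higher and 2672 lower of 20072 tested. With all libraries the calls were 459 and 431 of 20168.

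Iron deficiency raised *PCO1* and *PCO2* and lowered *RAP2.12* in both genotypes, and *HRE2* was higher in every -Fe library than in any +Fe library of the same genotype. *PCO1* rose 13.9-fold in wild type and 15.6-fold in *clf*, and *PCO2* 9.88-fold and 9.80-fold. *RAP2.12* fell to 0.524 of its +Fe level in wild type and to 0.544 in *clf*. *PCO3*, *PCO4* and *PCO5* stayed within narrow ranges. At a Benjamini-Hochberg adjusted p under 0.05 in edgeR's quasi-likelihood test, 2 of the 10 genes were higher and 1 was lower under iron deficiency in wild type, where 2.28% of all genes tested were higher and 2.14% lower. The same 3 genes made the calls in *clf*, where 1.27% of all genes tested were higher and 0.491% lower.

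**Figure D1:**
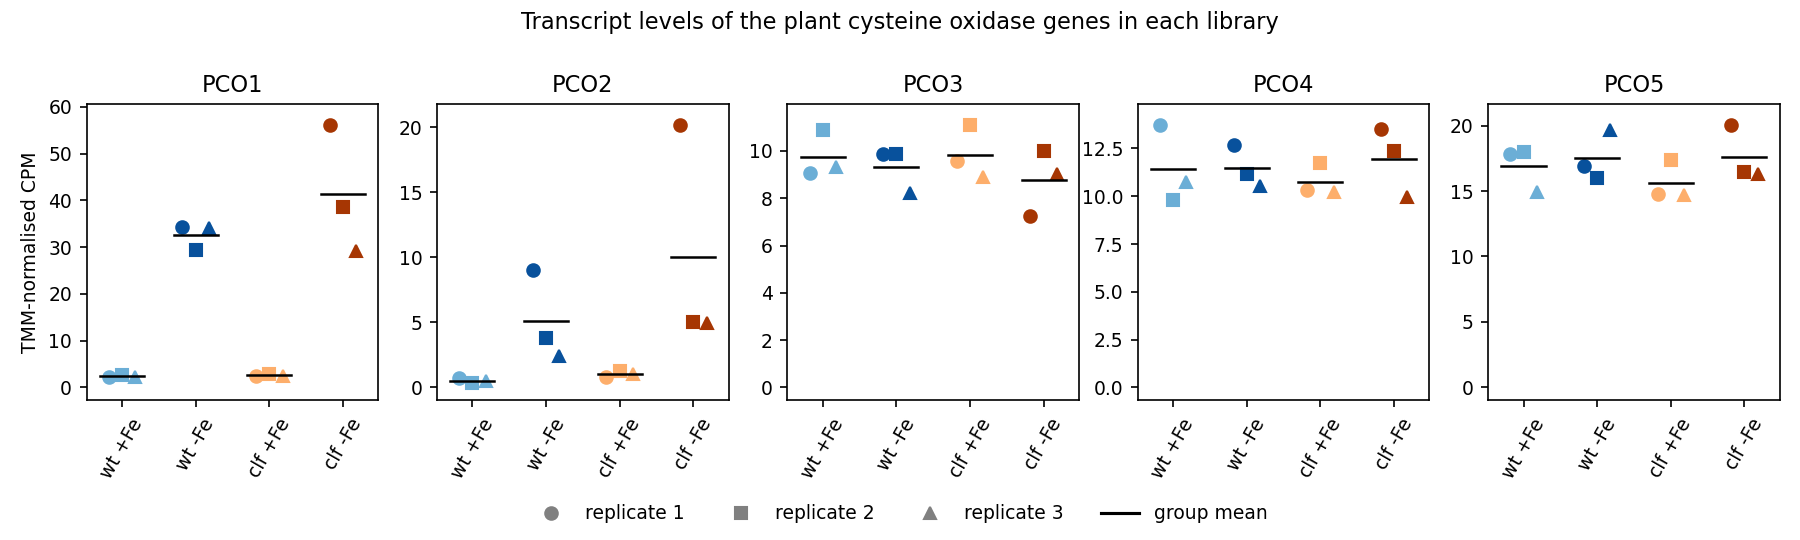
TMM-normalised CPM of the 5 PCO genes (vertical axes, linear, a scale for each gene) in the 4 groups, with a symbol for each replicate and a line at the group mean. *PCO1* and *PCO2* were higher in all 6 -Fe libraries than in the 6 +Fe libraries, and the groups overlapped for *PCO3*, *PCO4* and *PCO5*.

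*PCO1*, the more abundant of the hypoxia-inducible oxidases, stood at 2.11, 2.71 and 2.21 CPM in +Fe wild type libraries 1 to 3 and at 34.4, 29.5 and 34.0 CPM in the -Fe wild type libraries. In *clf* it stood at 2.51, 2.92 and 2.48 CPM with iron and at 56.0, 38.6 and 29.2 CPM without. All -Fe libraries were therefore far above all +Fe libraries, and the +Fe libraries of both genotypes lay close together. By edgeR's quasi-likelihood test the wild type log2 fold change was 3.80 (SE 0.24, adjusted p = 1.16e-05), and in *clf* it was 3.97 (SE 0.24, adjusted p = 9.59e-06). With each library left out in turn it stayed between 3.73 and 3.92 in wild type and between 3.68 and 4.15 in *clf*, with no adjusted p above 0.000361.

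*PCO2*, its closest relative by sequence, was the least abundant of the 10 genes in +Fe wild type, with 0.717, 0.313 and 0.480 CPM from 17, 6 and 10 reads. In the -Fe wild type libraries it reached 8.99, 3.79 and 2.44 CPM. In *clf* the values were 0.815, 1.23 and 1.03 CPM at +Fe and 20.1, 5.02 and 4.94 CPM at -Fe. The groups did not overlap in either genotype, and in both the first -Fe replicate, which stands apart, was more than 2 times as high as either of the others. Tested with edgeR's quasi-likelihood method, the wild type log2 fold change was 3.30 (SE 0.69, adjusted p = 0.0237), while *clf* gave 3.29 (SE 0.66, adjusted p = 0.0311). These calls depend on single libraries. In wild type the adjusted p rose to 0.103 when either +Fe replicate 2 or 3 was omitted and to 0.0527 when -Fe replicate 2 was, and in *clf* to 0.148, 0.109 and 0.136 without *clf* +Fe replicates 1, 2 and 3, to 0.0717 without *clf* -Fe replicate 1, and to 0.0513 and 0.0569 without wild type +Fe replicates 2 and 3, with log2 fold changes of 2.60 to 3.66 in wild type and 2.28 to 3.61 in *clf* over all 12 omissions.

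*PCO3*, *PCO4* and *PCO5* encode oxidases whose transcripts are known to be present without hypoxia. Across all 12 libraries, *PCO3* ranged from 7.25 to 11.1 CPM, *PCO4* from 9.81 to 13.7 CPM and *PCO5* from 14.7 to 20.02 CPM, and the -Fe and +Fe libraries overlapped in both genotypes. Their log2 fold changes lay between -0.17 and 0.18, and none passed the test. The 95% intervals of the iron effect ran from -0.44 to 0.31 for *PCO3*, from -0.38 to 0.38 for *PCO4* and from -0.27 to 0.38 for *PCO5* in wild type, and from -0.54 to 0.21, -0.22 to 0.53 and -0.15 to 0.50 in *clf*. An effect of the size seen for *PCO1*, *PCO2* or *RAP2.12* lies outside every one of these intervals. They leave room for smaller changes, within -0.54 and 0.53 on the log2 scale.

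The family as a whole therefore changed in its make-up. On the scale of FPKM (fragments per kilobase of transcript, scaled to library size), which allows levels to be compared between genes, the summed level of the 5 PCO genes was 30.01 ± 3.41 in +Fe wild type and 58.1 ± 9.48 in -Fe wild type (SD, n = 3). In *clf* the sums were 28.5 ± 3.39 and 65.4 ± 20.7 (SD, n = 3). *PCO1* made up 6.92% ± 1.01 of this sum in +Fe and 47.4% ± 2.27 in -Fe wild type, and 7.96% ± 0.0349 and 49.7% ± 2.83 in *clf* (SD, n = 3). *PCO5*, the leading oxidase transcript in every +Fe library with 40.6% to 45.04% of the sum, held 15.9% to 25.1% of it in the -Fe libraries.

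**Figure D2:**
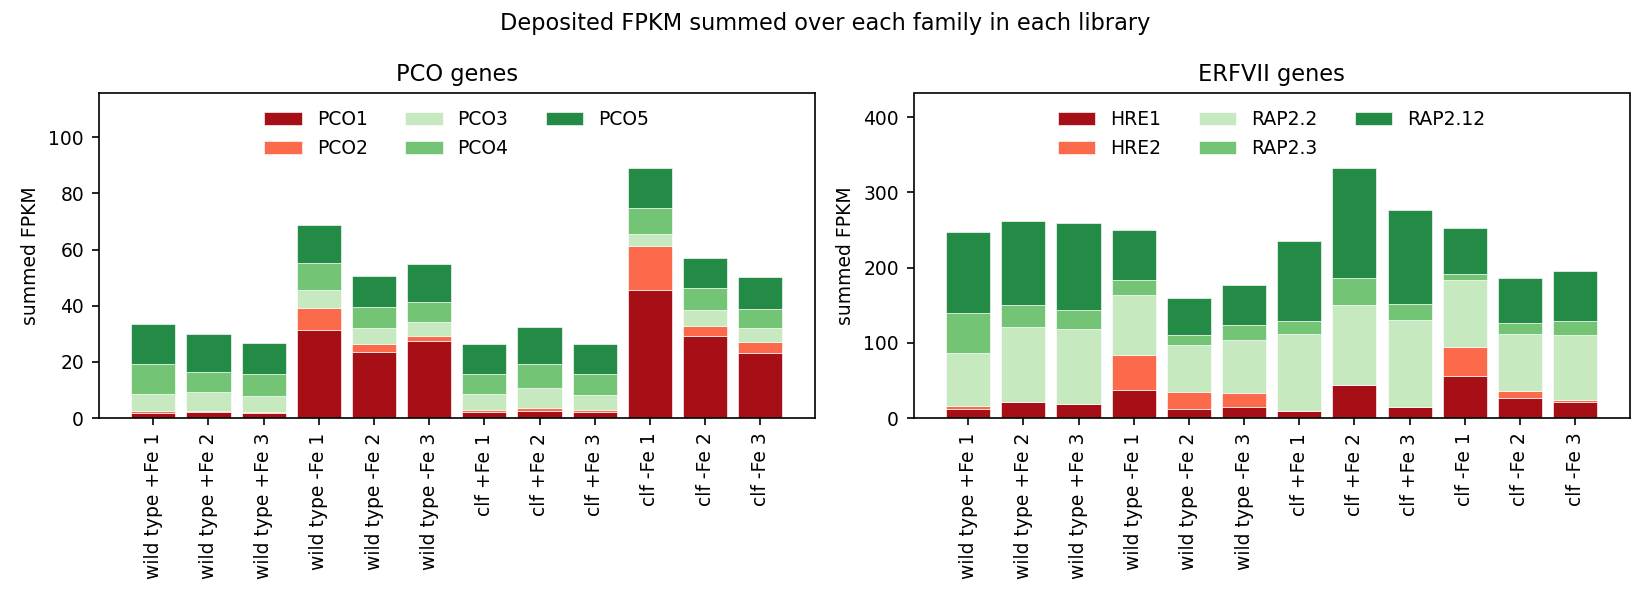
Deposited FPKM (vertical axes, linear) summed over the PCO genes (left) and the ERFVII genes (right) in each of the 12 libraries, with coloured segments for the genes. The PCO sum lay between 26.4 and 33.5 in the +Fe libraries and between 50.1 and 88.9 in the -Fe libraries, and most of the added height is *PCO1*.

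*HRE2*, an ERFVII gene known to be induced by low oxygen, had the lowest counts of the 10 genes in several +Fe libraries. In +Fe wild type it stood at 1.90, 0.156 and 0 CPM from 45, 3 and 0 reads, and in -Fe wild type at 29.2, 16.5 and 13.2 CPM. In *clf* it stood at 0, 0.547 and 0.140 CPM with iron and at 27.3, 7.001 and 1.95 CPM without. All -Fe libraries thus exceeded all +Fe libraries, and the highest value of each -Fe group was again in replicate 1. Only 2 of the 6 +Fe libraries held at least 10 reads of *HRE2*, so that the gene entered the test through its -Fe libraries. Neither genotype passed edgeR's quasi-likelihood test at 0.05, with a log2 fold change of 4.78 for wild type (SE 1.28, adjusted p = 0.0637) and of 5.77 for *clf* (SE 1.43, adjusted p = 0.0789).

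The *HRE2* comparison moved across the threshold with the settings. DESeq2 called it in wild type (adjusted p = 0.0353) as well as in *clf* (adjusted p = 0.0150). With only the 6 wild type libraries and the replicate number as a block, the log2 fold change was 5.17 (adjusted p = 0.0216, edgeR's quasi-likelihood test). Of all genes, that fit called 1264 higher and 1142 lower, against 237 and 177 without the block, where *HRE2* was not called. The block was chosen from how these same libraries deviate, and replicate 1 stands apart in both groups, so the call is not separate support. With the block over all 12 libraries the log2 fold change of *HRE2* in wild type was 5.45 (adjusted p = 0.0261, edgeR's quasi-likelihood test). That fit also blocks *clf* libraries, which the numbers do not pair for iron. Without wild type +Fe replicate 1, which held 45 of the 48 *HRE2* reads of its group, the fold change in wild type was 7.92 (adjusted p = 0.0309) and that in *clf* 5.78 (adjusted p = 0.0401). Without *clf* -Fe replicate 1 the wild type adjusted p was 0.0448. Without the 4 libraries that stand apart, *HRE2* was called in wild type (7.52, adjusted p = 0.0026) and *clf* (6.07, adjusted p = 0.0168) by edgeR's quasi-likelihood test. Over all 12 omissions the log2 fold change ranged from 4.21 to 7.92 in wild type and from 4.33 to 7.49 in *clf*, and the adjusted p from 0.0309 to 0.206 and from 0.0401 to 0.256.

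*HRE1*, the other hypoxia-inducible ERFVII gene, did not share this pattern. Its values were 11.01, 19.6 and 17.8 CPM in +Fe wild type and 33.3, 11.9 and 14.5 CPM in -Fe wild type. In *clf* they were 9.10, 39.9 and 14.2 CPM with iron and 55.8, 28.0 and 21.5 CPM without. The groups overlapped in both genotypes, and the highest values fell in libraries that stand apart. The log2 fold change was 0.30 (95% interval -0.98 to 1.58) in wild type and 0.74 (-0.54 to 2.02) in *clf*, with adjusted p-values of 0.843 and 0.659 in edgeR's quasi-likelihood test. The direction in wild type turned without -Fe replicate 1, to -0.29. Without the 4 libraries that stand apart it was -0.51 in wild type (adjusted p = 0.0810) and 1.10 in *clf* (adjusted p = 0.00253) in the same test.

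**Figure D3:**
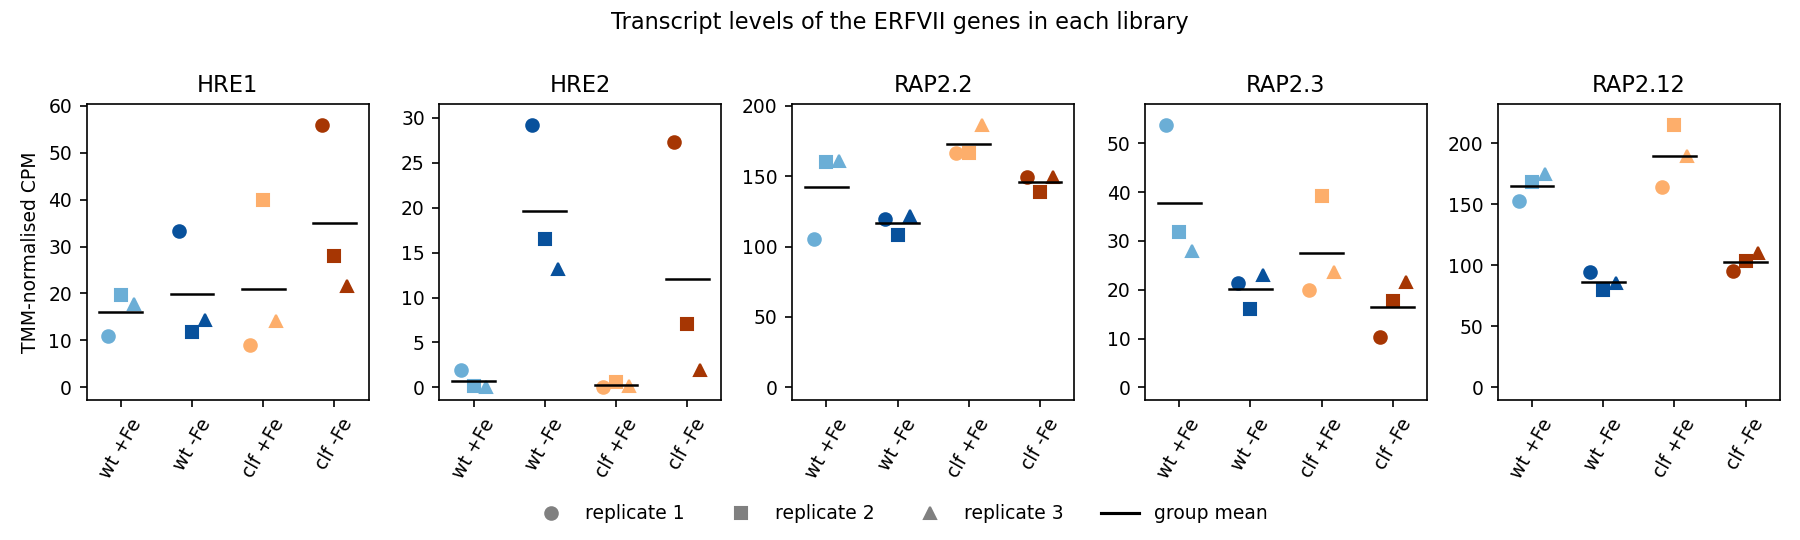
TMM-normalised CPM of the 5 ERFVII genes (vertical axes, linear, a scale for each gene) in the 4 groups, with a symbol for each replicate and a line at the group mean. *HRE2* and *RAP2.12* separate the -Fe from the +Fe libraries in both genotypes, upwards and downwards, whereas *HRE1* ranges from 9.10 to 55.8 CPM with overlap.

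The RAP2 genes are the ERFVII genes with transcripts present in normal air, and their proteins act at the onset of hypoxia. All 3 genes had negative fold changes under iron deficiency. *RAP2.12*, for which the protein is known to be held at membranes by acyl-CoA-binding proteins, stood at 152, 168 and 175 CPM in +Fe wild type and at 94.8, 79.3 and 85.4 CPM in -Fe wild type. In *clf* it stood at 164, 215 and 190 CPM and at 95.7, 103 and 110 CPM. Every +Fe library of both genotypes was above every -Fe library, and the calls did not rest on any single library. In log2 terms the wild type change was -0.93 (SE 0.14, adjusted p = 0.00397), and that of *clf* -0.88 (SE 0.14, adjusted p = 0.00848), by edgeR's quasi-likelihood test.

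*RAP2.3*, also called *EBP*, was lower in all 3 -Fe wild type libraries (21.3, 16.1 and 23.0 CPM) than in the +Fe ones (53.7, 31.8 and 28.0 CPM). In *clf* the -Fe values of 10.3, 17.7 and 21.6 CPM overlapped the +Fe values of 20.01, 39.2 and 23.6 CPM. Neither difference passed edgeR's quasi-likelihood test, at -0.91 (SE 0.34, adjusted p = 0.177) for wild type and -0.74 (SE 0.34, adjusted p = 0.379) for *clf* on the log2 scale. The wild type difference was called without the 4 libraries that stand apart, at a smaller size (-0.61, adjusted p = 0.0145). *RAP2.2*, the closest relative of *RAP2.12*, moved less, from 105, 160 and 161 CPM to 120, 108 and 122 CPM in wild type and from 167, 167 and 186 CPM to 149, 139 and 149 CPM in *clf*. Its groups overlapped in wild type through +Fe replicate 1 and did not overlap in *clf*. The log2 fold changes were -0.29 (SE 0.16, adjusted p = 0.385) and -0.25 (SE 0.16, adjusted p = 0.564), and without the 4 libraries that stand apart the wild type value was -0.48 with an adjusted p of 0.00373 in edgeR's quasi-likelihood test.

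Libraries that did not overlap between -Fe and +Fe were found for 3 genes upwards (*PCO1*, *PCO2*, *HRE2*) in each genotype. Of these, *HRE2* passed the filter only through its -Fe libraries. Downwards there were 2 in wild type (*RAP2.3*, *RAP2.12*) and 2 in *clf* (*RAP2.2*, *RAP2.12*). Over all genes tested, 10.5% did not overlap upwards and 11.6% downwards in wild type, and 11.6% and 10.9% in *clf*.

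**Figure D4:**
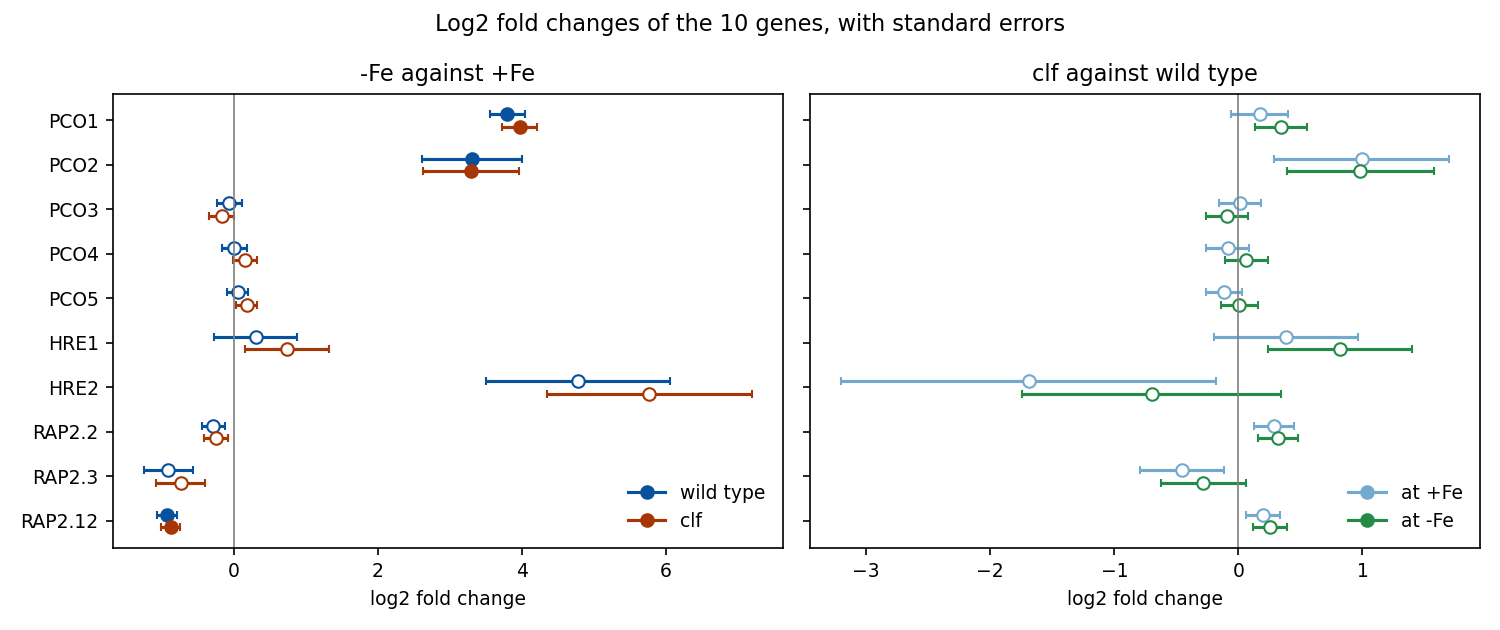
Log2 fold changes (horizontal axes) of the 10 genes for iron deficiency in each genotype (left) and for *clf* against wild type at each iron level (right), with bars of 1 standard error and filled points at an adjusted p under 0.05. The filled points are *PCO1*, *PCO2* and *RAP2.12* on the left, and no point on the right is filled.

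The iron effect averaged over both genotypes sets 6 libraries against 6 and is the more sensitive test. It called 3 of the 10 genes higher and 2 lower, where 5.81% of all genes tested were higher and 5.6% lower. Among the higher genes, *HRE2* passed the filter only through its -Fe libraries, so the filter favours its place in this count. *PCO1* and *PCO2* did not depend on those libraries to pass. *PCO1* (3.88, adjusted p = 2.69e-07), *PCO2* (3.30, adjusted p = 0.00158) and *HRE2* (5.27, SE 0.96, adjusted p = 0.00592) were higher, and *RAP2.12* (-0.91, adjusted p = 0.000226) and *RAP2.3* (-0.82, adjusted p = 0.0497) lower, in log2 fold changes and edgeR's quasi-likelihood test. The call of *RAP2.3* is at the threshold. It held without *clf* +Fe replicate 1 or *clf* -Fe replicate 3 and was lost without each of the other 10 libraries (log2 fold change -0.91 to -0.66, adjusted p up to 0.119) and with the replicate block (adjusted p = 0.0799). *RAP2.2* (-0.27, adjusted p = 0.163) was called without wild type +Fe replicate 1 (-0.36, adjusted p = 0.0195) and without the 4 libraries that stand apart (-0.39, adjusted p = 0.0011), and the averaged log2 fold change of *HRE1* was 0.52 (adjusted p = 0.464), both in the same test.

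The order of the genes by level changed with iron. In +Fe wild type the FPKM fell in the order *RAP2.12* (112 ± 3.06), *RAP2.2* (90.4 ± 16.8), *RAP2.3* (35.6 ± 14.8), *HRE1* (17.5 ± 4.34), *PCO5* (12.9 ± 1.67), *PCO4* (8.40 ± 1.88), *PCO3* (6.18 ± 0.543), *PCO1* (2.06 ± 0.248), *HRE2* (1.10 ± 1.70) and *PCO2* (0.430 ± 0.192), as mean ± SD with n = 3. Neighbours in this order overlapped between *HRE1* and *PCO5*, *PCO1* and *HRE2*, and *HRE2* and *PCO2*. In -Fe wild type, *RAP2.2* (71.2 ± 8.29) and *RAP2.12* (56.1 ± 9.29) led with overlapping libraries, followed by *HRE2* (29.2 ± 14.9) and *PCO1* (27.4 ± 3.94), which overlapped each other as well as *HRE1* (21.3 ± 14.3). In *clf* the order at +Fe was the same but for the last places, where *PCO2* (0.846 ± 0.191) stood above *HRE2* (0.348 ± 0.435) with overlap. At -Fe *clf* again had *RAP2.2* (83.7 ± 6.34) and *RAP2.12* (62.5 ± 4.18) in the lead, here without overlap, and *HRE1* (34.6 ± 19.0), *PCO1* (32.7 ± 11.6) and *HRE2* (16.9 ± 19.2) next with overlap.

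The summed FPKM of the 5 ERFVII genes was 256 ± 7.60 at +Fe and 196 ± 48.2 at -Fe in wild type, and 281 ± 48.7 and 211 ± 35.5 in *clf* (SD, n = 3). The libraries of the iron levels overlapped in both genotypes. *HRE2* rose from 0% to 1.23% of this sum in the +Fe libraries to 1.38% to 18.5% in the -Fe libraries, and *RAP2.12* was 42.6% to 45.1% in the +Fe and 23.8% to 34.4% in the -Fe libraries.

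No gene of either family passed the test between *clf* and wild type. With edgeR's quasi-likelihood test, 0 of the 10 genes were called at +Fe and 0 at -Fe, where 0.0694% and 0.134% of all genes tested were called, and 0 had an unadjusted p under 0.05 or a call by DESeq2 at either level. Of all genes, 680 at +Fe and 1557 at -Fe had an unadjusted p under 0.05, and DESeq2 called 74 and 218. The values of *PCO2* lay higher in *clf* at +Fe without overlap (0.815 to 1.23 against 0.313 to 0.717 CPM), as did those of *RAP2.2* at both iron levels (167 to 186 against 105 to 161 CPM, and 139 to 149 against 108 to 122 CPM) and of *RAP2.12* at -Fe (95.7 to 110 against 79.3 to 94.8 CPM). Over all genes tested, 4.48% were higher in *clf* without overlap at +Fe and 7.65% at -Fe.

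Averaged over the iron levels, 0 of the 10 genes were called, where 0.431% of all genes tested were, 2 had an unadjusted p under 0.05, and DESeq2 called 0. The 2 with an unadjusted p under 0.05 were *RAP2.2* (log2 fold change 0.30, 95% interval 0.05 to 0.55, adjusted p = 0.405) and *RAP2.12* (0.22, 0.01 to 0.44, adjusted p = 0.495) in edgeR's quasi-likelihood test. For *PCO2* the averaged value was 0.99 with an interval from -0.02 to 2.00 (adjusted p = 0.539). The remaining intervals included 0, and those of *PCO3*, *PCO4* and *PCO5* lay within -0.31 and 0.26. Without the 4 libraries that stand apart, *HRE1* (0.91, adjusted p = 0.0131) and *RAP2.12* (0.37, adjusted p = 0.0489) were called higher in *clf* at -Fe by the same test, in a fit that called 980 genes higher and 622 lower there.

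The iron responses of the genotypes were also compared directly. In the test of this difference, 0 of the 10 genes were called by edgeR's quasi-likelihood test, 0 had an unadjusted p under 0.05 and DESeq2 called 0, while 0% of all genes tested were called, 320 had an unadjusted p under 0.05 and DESeq2 called 3. The difference (*clf* minus wild type, log2) was 0.17 for *PCO1* (95% interval -0.52 to 0.85), -0.01 for *PCO2* and 0.05 for *RAP2.12* (-0.37 to 0.48). No interval is given for *PCO2*. Its SE for the difference came out at 0.585, below those of its iron effects in wild type (0.69) and *clf* (0.66), which is too small for a difference between them. For *HRE2* (0.99, -3.04 to 5.02) and *HRE1* (0.44, -1.37 to 2.24) the interval leaves room for differences of several fold either way. The difference of *HRE1* was 1.61 (adjusted p = 0.0106, edgeR's quasi-likelihood test) without the 4 libraries that stand apart and -0.07 without *clf* -Fe replicate 1.

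The Cys branch of the N-degron pathway needs methionine aminopeptidases (*MAP1A*, *MAP2A*, *MAP2B*) to expose the cysteine, arginyl transferases (*ATE1*, *ATE2*) to mark the oxidised residue, and the ubiquitin ligase PRT6 with BIG for degradation. Of these 7 genes, 0 were called in any of the 7 comparisons by edgeR's quasi-likelihood test, where at most 5.81% of all genes tested were called higher and 5.6% lower, so that 0 of 7 is near the background. Their log2 fold changes under iron deficiency lay between -0.27 and 0.40 in wild type and between -0.19 and 0.42 in *clf*. The single unadjusted p under 0.05 was that of *MAP2B* averaged over genotypes (-0.21, adjusted p = 0.112), which DESeq2 called there (-0.21, adjusted p = 0.0396). *VRN2*, a PRC2 subunit that carries the same Met-Cys start and is a further PCO target, was called higher in the averaged iron comparison (0.43, SE 0.11, adjusted p = 0.0254, edgeR's quasi-likelihood test), with 14.0 to 20.8 CPM in the +Fe and 21.2 to 24.4 CPM in the -Fe libraries of both genotypes. That call was lost without any of 8 of the 12 libraries (adjusted p up to 0.0738) and held without wild type +Fe 1, wild type -Fe 1, *clf* -Fe 1 or *clf* -Fe 3. *ZPR2*, another target, did not pass the filter on low counts.

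Among 6 genes whose proteins bind ERFVII factors or act on them or on other N-degrons, *HRA1* moved most. HRA1 is a trihelix protein that restrains RAP2.12. It stood at 3.21, 4.12 and 3.40 CPM in +Fe and 36.3, 19.4 and 25.4 CPM in -Fe wild type, and at 4.29, 3.28 and 4.25 and at 68.6, 33.1 and 23.2 CPM in *clf*, with no overlap in either genotype. On the log2 scale *HRA1* rose by 2.92 in wild type roots (SE 0.38, adjusted p = 0.00239) and by 3.40 in *clf* roots (SE 0.39, adjusted p = 0.00119). *PRT1*, a ubiquitin ligase for other N-terminal residues, rose in *clf* (0.70, SE 0.13, adjusted p = 0.0214) and had a value of 0.51 (adjusted p = 0.0517, or 0.0267 without wild type -Fe replicate 1 and 0.00311 without the 4 libraries that stand apart) in wild type, both from edgeR's quasi-likelihood test. The *clf* call of *PRT1* was lost without any 1 of *clf* +Fe replicates 1, 2 and 3 and *clf* -Fe replicates 1 and 2 (adjusted p 0.0648 to 0.108), while its averaged value (0.61, adjusted p = 0.00191) held in every omission. The acyl-CoA-binding protein genes *ACBP1* and *ACBP2* and the ligase genes *SINAT1* and *SINAT2* did not pass the test in either genotype.

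Nitric oxide is a second signal that destabilises ERFVII proteins, and the phytoglobins that scavenge it were split. *PGB1*, the hypoxia-inducible phytoglobin, rose by 3.55 (SE 0.53, adjusted p = 0.00464) in wild type, from 3.59 to 5.58 CPM to 39.4 to 73.7 CPM, and by 3.54 (SE 0.53, adjusted p = 0.00773) in *clf*, from 2.66 to 3.51 CPM to 14.2 to 70.3 CPM. The *clf* call of *PGB1* was lost without *clf* +Fe replicate 1 or 3 (adjusted p = 0.0549 and 0.0536). *PGB3* fell in wild type (-1.92, SE 0.33, adjusted p = 0.00937) and had a value of -1.45 (adjusted p = 0.0513) in *clf*, which crossed the threshold without wild type -Fe replicate 1 (-1.45, adjusted p = 0.0431), without *clf* -Fe replicate 3 (-1.91, adjusted p = 0.0131) and without the 4 libraries that stand apart (-1.22, adjusted p = 0.00924). In the averaged comparison *PGB2* was higher (0.74, adjusted p = 0.0416, lost without each library but wild type -Fe 1 and *clf* -Fe 1) and the nitrate reductase gene *NIA2* lower (-1.09, adjusted p = 0.0132), all from edgeR's quasi-likelihood test. *NIA1*, the other nitrate reductase gene, was not called in any comparison by edgeR's quasi-likelihood test. At -Fe it stood at 17.2 to 54.4 CPM in wild type and at 6.33 to 11.3 CPM in *clf*, without overlap, a log2 difference of -1.89 (SE 0.44, adjusted p = 0.191) that DESeq2 called (adjusted p = 0.00317), as it did the difference averaged over iron levels (-1.44, adjusted p = 0.000458, against 0.0937 in edgeR's test).

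The hypoxia response was followed with a textbook list of 39 genes that holds none of the 10 genes but shares *HRA1* and *PGB1* with the lists above. Whether these genes moved through ERFVII proteins was not tested. Of the 37 that passed the filter, 19 rose and 1 fell under iron deficiency in wild type, and 18 rose and 0 fell in *clf*, where the test was edgeR's with DESeq2 calling 21 and 19 in either direction. Over all genes tested the shares were 2.28% higher and 2.14% lower in wild type, and 1.27% and 0.491% in *clf*. Of the 37, *ARD3*, *WIP4* and AT2G17850 passed the filter only through -Fe libraries, and among the other 34 the calls were 16 higher and 1 lower in wild type and 16 higher and 0 lower in *clf*. The fallen gene was *PPDK*, for pyruvate orthophosphate dikinase (-1.70, adjusted p = 0.0158). The list had a median log2 fold change of 1.26 (wild type) and 1.44 (*clf*), against -0.0026 and -0.01 over all genes tested. Genes with no +Fe read in wild type lie above that median both as fitted and at their bound, so setting them at the bound cannot move it. The number called higher in wild type was 12 without wild type +Fe replicate 3. Of all genes, that fit called 158 higher, against 459 with all libraries. In *clf* the number was 7, 10 and 7 without *clf* +Fe replicates 1, 2 and 3. Of all genes, those fits called 91, 133 and 92 higher, against 257 with all libraries.

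The genes of this list with the smallest p were *ADH1*, *ACO1*, *ARD3* and *WIP4* in wild type, and AT3G27220, *ADH1*, AT5G44730 and *WIP4* in *clf*. *ADH1*, the alcohol dehydrogenase of ethanol fermentation, went from 10.3, 10.1 and 10.2 CPM to 312, 205 and 192 CPM in wild type and from 9.70, 9.22 and 12.0 CPM to 478, 194 and 127 CPM in *clf*. The log2 fold changes of *ADH1* were 4.54 (adjusted p = 0.000458) and 4.69 (adjusted p = 0.000476). *ACO1*, for an enzyme of ethylene synthesis, rose by 2.41 (adjusted p = 0.000397) and 1.45 (adjusted p = 0.00998), and the call in *clf* was lost without any of the 3 *clf* +Fe libraries (adjusted p 0.0536 to 0.0648). *WIP4*, a small wound-induced protein gene, rose by 5.24 (adjusted p = 0.00072) and 4.96 (adjusted p = 0.000937), AT3G27220 by 1.85 (adjusted p = 0.00173) and 2.24 (adjusted p = 0.000661), and AT5G44730 by 1.26 (adjusted p = 0.0038) and 1.71 (adjusted p = 0.000925), all from edgeR's quasi-likelihood test. *WIP4* had 17 and 34 reads in all in the +Fe libraries of wild type and *clf*, against 721 and 1085 at -Fe, and passed the filter only through its -Fe libraries.

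*ARD3*, for an acireductone dioxygenase of methionine salvage, was near 0 outside -Fe wild type and passed the filter on low counts only through that group, so its values are given as a description. It had 0 reads in +Fe wild type and 18.3, 16.7 and 9.71 CPM in -Fe wild type, at least 320-fold higher when the +Fe group is set to a floor of 3 counts. In *clf* it stood at 0.0354, 0 and 0 CPM and at 0.765, 0.184 and 0.181 CPM. The -Fe libraries of the genotypes did not overlap, and the fitted log2 difference between *clf* and wild type at -Fe was -5.26 (SE 0.59). The call of *ARD3* there is not read as a result, since the gene was tested only because it is high in -Fe wild type. No gene of the 37 other than *ARD3* was called between genotypes at -Fe by edgeR's quasi-likelihood test, where 0.134% of all genes tested were. At an unadjusted p under 0.05 there were 9 of the 37 and 1557 of all genes tested, and DESeq2 called 2 and 218. At +Fe 0 of the 37 were called, where 0.0694% of all genes tested were. There 1 of the 37 and 680 of all genes had an unadjusted p under 0.05, and DESeq2 called 0 and 74. Averaged over iron levels, AT4G39675 was higher in *clf* (1.48, adjusted p = 0.0485, edgeR's quasi-likelihood test), a call lost without any of 10 of the 12 libraries (adjusted p up to 0.150) and kept without wild type -Fe 1 or *clf* +Fe 1.

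**Figure D5:**
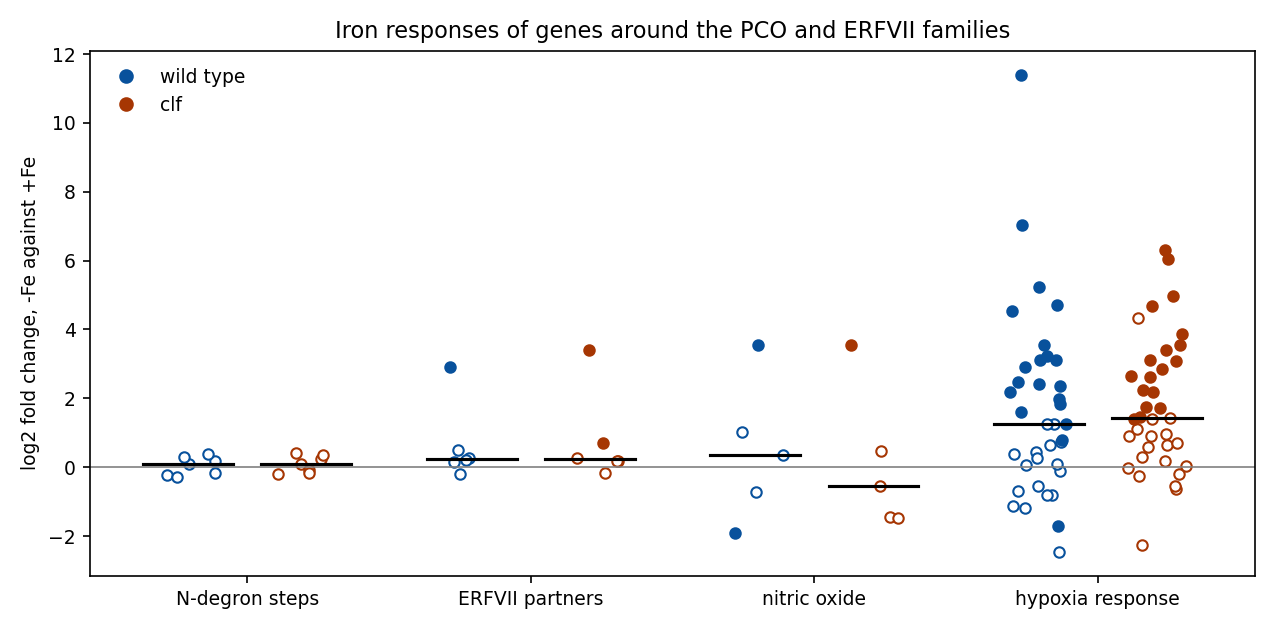
Log2 fold changes of -Fe against +Fe (vertical axis) for the genes of the N-degron steps, ERFVII partners, nitric oxide and hypoxia response lists, 1 point per gene in wild type (blue) and *clf* (brown), filled at an adjusted p under 0.05, with a line at the list median. The N-degron steps stay between -0.27 and 0.42, and the hypoxia response medians are 1.26 and 1.44. The highest wild type point is *ARD3*, with no read at +Fe.

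Other quantities moved between the groups with these genes. The summed CPM of 7 photosynthesis markers, fixed as a sign of green shoot tissue, was 186 to 503 in +Fe and 36.2 to 280 in -Fe wild type, and 213 to 785 in +Fe and 94.8 to 228 in -Fe *clf*. All 7 markers were detected in every library. Their median log2 fold change was -1.38 for wild type and -1.54 for *clf*, with all 7 negative in both genotypes. By edgeR's quasi-likelihood test 0 of 7 were called in either genotype (2 at an unadjusted p under 0.05 in each, 0 by DESeq2). In the averaged comparison their median was -1.57, and edgeR called *LHCB3* and *PSAD2* lower, where 5.6% of all genes tested were. There 6 of the 7 lay below 0.05 in edgeR's test before adjustment, and 4 passed in DESeq2. The matching counts over all genes were 5232 and 3224. The part of these markers in the results above was not tested. The summed CPM of the 9 root markers was 6638 to 14851 and 6384 to 11557.5 in +Fe and -Fe wild type. In *clf* it was 11178 to 15249.7 and 9869 to 13384. Of the 9, 0 were called in either genotype (0 and 2 at an unadjusted p under 0.05, 0 by DESeq2). Averaged over genotypes, edgeR called 0 of the 9 and DESeq2 1, with 2 below 0.05 in edgeR's test before adjustment.

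Within the groups, the same libraries carried the high values of several of these genes. The median hypoxia response gene lay 0.43 above its group mean (log2 CPM) in wild type -Fe replicate 1 and 0.84 above it in *clf* -Fe replicate 1, the libraries that also held the highest *PCO2*, *HRE1* and *HRE2* of their groups. In *clf* +Fe replicate 2, the library of its group that stands apart, 9 of the 10 genes had their highest value of the group. After subtraction of the group means, the log2 CPM of *HRE2* had a Pearson r of 0.866 with *PCO4*, 0.678 with *PCO2* and -0.60 with *RAP2.2*, and *PCO1* had 0.692 with *HRE1*, over 12 libraries that share depth and preparation. These correlations are descriptions and carry no test.

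By the same measure, the genes most like each member were sought among 17032 genes with a mean log2 CPM of at least 1. *PCO1* was followed most closely by *HAOX1* (r = 0.971), *PCO2* by AT5G48385 (r = 0.978), *PCO3* by AT5G47710 (r = 0.960), *PCO4* by AT4G07507 (r = 0.963) and *PCO5* by *NRT2.6* (r = 0.906). Among the ERFVII genes, *HRE1* was followed by AT3G15630 (r = 0.989) and *MYB6* (r = 0.982), *HRE2* by AT5G23540 (r = 0.967), *RAP2.2* by AT1G23530 (r = 0.970) and *NRT1.5* (r = 0.964), *RAP2.3* by AT4G18372 (r = 0.962) and *RAP2.12* by *MSRB2* (r = 0.936). None of the 10 genes was among the 3 nearest of another member.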

How the data were processed

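Root RNA of the 4 groups was sequenced by a service provider (Novogene, which also ran the standard analysis) as paired-end reads from stranded mRNA libraries and mapped on the TAIR10 genome by TopHat2, a tool the submitters' notes list (its version, and whether counting used strand, are not given in the sources used here). HTSeq (union mode) gave the reads of each gene, and the authors deposited the raw counts. The deposited FPKM values are such counts scaled by gene length and library size. Counts were fitted here with edgeR 4.0.16 (R 4.3.3) in 1 model of the 12 libraries (TMM factors, default filter on low counts, robust quasi-likelihood test, 8 residual degrees of freedom, Benjamini-Hochberg adjustment over 20168 genes, threshold 0.05). The 7 comparisons were the iron effect in each genotype, *clf* against wild type at each iron level, the difference between the iron effects, and both effects averaged. SEs are the absolute log2 fold change over the square root of F, and 95% intervals follow from them with the t distribution. CPM values use TMM factors, and log2 CPM a prior count of 2. The lowest library total was 18658428 counts. P-values measure the spread between these libraries. The tests were run on simulated counts first.

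Alternatives were DESeq2 1.42.0, RLE factors, no filter, a minimum of 10 reads per library throughout, a block for the replicate number, limma 3.58.1 with pseudocounts of 1 or 0.1 on log2 FPKM (FPKM 1 or more in 3 libraries), only the 6 libraries compared with and without the block, omitting each library, and omitting from each group the library least correlated with the others. Same-numbered libraries deviated together for iron in wild type (r = 0.616, 0.440 and 0.463) and for genotype at -Fe (0.448, 0.541 and 0.165), but not for iron in *clf* (-0.394, -0.345 and 0.432) or genotype at +Fe (-0.386, -0.398 and 0.344). The numbers were therefore read as pairs in the former comparisons only, a choice made from the same data that were then tested. The block in the fit of all 12 libraries nevertheless applied to every comparison. All 10 genes were named, with the called members of each list up to the 4 of smallest p per comparison. *PPDK*, *MAP2B*, *NIA1*, AT2G17850, *LHCB3* and *PSAD2* were named after their values were seen, and list members without a call are named for completeness. The genes, lists and tests were chosen with earlier results of these data known. Coordinates and sequences are from RefSeq (TAIR10.1), which names 31912 of the 32678 gene IDs. Protein identities come from translated coding sequences of the longest annotated form.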

Additional observations from a re-analysis of the deposited data

How the results depend on the processing

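The numbers of the 10 genes called moved by more than 1.5 times in few settings. Without the least correlated library of each group, 6 were called for iron in wild type, 5 for iron in *clf*, 2 between genotypes at -Fe and 1 for the difference between iron effects, in place of 3, 3, 0 and 0, a fit that narrows the spread by its own rule. Of the 20072 genes tested, that fit called 2798 higher and 2672 lower for iron in wild type, and 1790 and 1133 in *clf*. Between genotypes at -Fe it called 980 and 622, and for the difference 348 and 103. With at least 10 reads in every library, 3 in place of 5 were called for iron averaged over genotypes, since *PCO2* and *HRE2* were then not tested. Of all 17942 genes tested there, 914 were called higher and 1083 lower. With only the 6 *clf* libraries and a replicate block, 1 gene was called in place of 3, and the hypoxia response genes called higher in *clf* went from 18 to 1. Of all 19668 genes tested there, 30 were called higher and 1 lower. The numbers do not pair these libraries. Leaving out each library in turn gave 2 to 4 genes for iron in either genotype, 4 to 5 for the averaged iron effect and 0 for every comparison of genotypes and for the difference. The fold change of *HRE1* for iron in wild type turned to -0.51 without the least correlated libraries and ranged from -0.29 to 0.57 over single omissions, and its difference between iron effects from -0.065 to 1.29. *PCO2* was lost with limma on log2(FPKM + 1) in wild type (1.71, adjusted p = 0.0762) and *clf* (1.97, adjusted p = 0.0703), and in *clf* with only the 6 libraries compared (3.30, adjusted p = 0.0645, edgeR's quasi-likelihood test). *HRE2* in wild type was also called by limma at both pseudocounts (4.04 and 5.84, adjusted p = 0.0132 and 0.0250). *RAP2.12* in *clf* was lost only with those 6 libraries and the block (-0.88, adjusted p = 0.135, edgeR's quasi-likelihood test). With limma the median over all genes for iron in *clf* shifted to -0.10 and -0.12 at the pseudocounts of 1 and 0.1. The cause of these shifts was not tested. *PCO1* was called in all settings for iron, and the replicate block over all 12 libraries changed no call of the 10 genes other than *HRE2* in wild type (5.45) and *RAP2.3* averaged (-0.83). Low counts limit *PCO2* and *HRE2*, with 33 and 48 reads in all over the 3 +Fe wild type libraries.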
